A study of Mus musculus with 4 samples.

Results

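Immunoglobulin variable segments are the gene pieces that encode most of the antigen-binding part of an antibody. In the deposited expression table of lung macrophages, 175 of 27433 rows carried a variable segment name: 90 heavy chain rows (Ighv), 82 kappa light chain rows (Igkv) and 3 lambda light chain rows (Iglv). The segments described here are the 79 of these 175 rows whose mean over all 4 libraries was at least 1 FPKM (FPKM is a read count divided by transcript length and library total). They comprise 38 Ighv, 39 Igkv and 2 Iglv segments. The level in these same libraries chose them, so their presence and their mean level are a description and not a finding. All 79 matched a gene that GENCODE release M21 annotates as an immunoglobulin variable gene, and none of the 12 pseudogene rows (6 Ighv and 6 Igkv) reached the threshold.

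The cells were lung macrophages (CD11b+ Ly6G- CD64+, Siglec-F low) sorted from tumor-bearing bone marrow chimeras 8 weeks after intranasal Ad-Cre, an adenovirus that delivers Cre recombinase. All recipients were KL mice, which carry Lkb1fl/fl among other alleles, and received a lethal dose of radiation before the graft. In KL mice Cre deletes Lkb1. The donor marrow was Tmem173fl/fl in the 2 WTKL libraries and Tmem173fl/fl;Lyz2-Cre in the 2 LYZKL libraries. Tmem173 encodes STING, an adaptor of cytosolic DNA sensing, and Lyz2-Cre drives Cre from the lysozyme M gene, that is mainly in myeloid cells. The WTKL marrow carries the floxed gene but no Cre, so the presence of Cre and the loss of Tmem173 cannot be told apart. The labels do not say whether the libraries came from separate mice or from pools, so p-values measure the spread between these libraries, which may be technical. Host cells that survive irradiation may remain in such chimeras, and their share was not measured here.

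Each B cell joins 1 of many heavy chain variable segments to a diversity and a joining segment, and 1 kappa or lambda variable segment to a joining segment. The B cell and its descendants then transcribe those joined segments at a high level together with a constant gene, above all after they become plasma cells. The mix of variable segments in an RNA sample therefore reflects which B lineage clones gave RNA to it. Macrophages do not rearrange these genes but bind antibody through Fc receptors. In bulk RNA, fewer cells of a type and less RNA per cell cannot be told apart.

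The segments that lead the results below are printed as the germline sequence of their variable exon, cut to its last 300 bases at most, taken from the GENCODE M21 transcripts on GRCm38, the assembly of the build mm10 that the submitters' processing notes name. They are the leading heavy or kappa segment of each library and Ighv1-59, the segment that passed the test between groups. Each runs 5′ to 3′ on the coding strand, and the capitals run from the last in-frame cysteine codon, where the third hypervariable loop begins, to the end of the germline exon.
Ighv1-80: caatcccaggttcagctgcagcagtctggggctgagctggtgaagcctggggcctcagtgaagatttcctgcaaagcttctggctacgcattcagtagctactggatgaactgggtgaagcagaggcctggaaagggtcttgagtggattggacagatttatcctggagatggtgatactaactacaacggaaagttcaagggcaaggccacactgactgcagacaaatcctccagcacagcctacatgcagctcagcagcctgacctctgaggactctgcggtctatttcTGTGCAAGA
Ighv1-64: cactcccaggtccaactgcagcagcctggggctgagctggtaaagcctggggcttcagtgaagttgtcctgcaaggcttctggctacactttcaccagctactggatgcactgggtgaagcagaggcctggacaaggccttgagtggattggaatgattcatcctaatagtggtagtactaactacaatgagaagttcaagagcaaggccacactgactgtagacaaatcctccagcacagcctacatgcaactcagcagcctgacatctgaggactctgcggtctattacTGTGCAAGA
Ighv2-2: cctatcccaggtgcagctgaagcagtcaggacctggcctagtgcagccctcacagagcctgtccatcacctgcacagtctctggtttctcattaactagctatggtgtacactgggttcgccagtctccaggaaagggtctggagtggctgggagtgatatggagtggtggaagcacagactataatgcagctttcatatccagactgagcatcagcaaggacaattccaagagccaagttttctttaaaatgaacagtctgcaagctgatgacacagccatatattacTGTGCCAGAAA
Ighv1-59: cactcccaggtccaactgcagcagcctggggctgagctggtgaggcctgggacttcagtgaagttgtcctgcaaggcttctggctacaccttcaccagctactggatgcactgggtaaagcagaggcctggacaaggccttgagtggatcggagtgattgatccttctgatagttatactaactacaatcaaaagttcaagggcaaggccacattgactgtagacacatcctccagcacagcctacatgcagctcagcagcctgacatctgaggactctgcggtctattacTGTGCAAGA
Igkv3-4: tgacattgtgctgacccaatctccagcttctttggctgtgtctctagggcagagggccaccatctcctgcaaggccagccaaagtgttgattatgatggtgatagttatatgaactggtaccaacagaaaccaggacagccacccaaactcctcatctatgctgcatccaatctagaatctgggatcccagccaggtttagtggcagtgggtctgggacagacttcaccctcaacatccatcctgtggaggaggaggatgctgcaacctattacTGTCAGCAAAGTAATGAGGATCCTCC
Igkv10-96: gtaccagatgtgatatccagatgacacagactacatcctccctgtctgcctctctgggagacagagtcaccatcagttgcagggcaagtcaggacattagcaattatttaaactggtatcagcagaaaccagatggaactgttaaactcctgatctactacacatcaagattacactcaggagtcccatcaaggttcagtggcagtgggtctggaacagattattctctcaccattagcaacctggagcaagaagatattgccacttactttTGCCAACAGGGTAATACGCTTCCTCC
Igkv4-55: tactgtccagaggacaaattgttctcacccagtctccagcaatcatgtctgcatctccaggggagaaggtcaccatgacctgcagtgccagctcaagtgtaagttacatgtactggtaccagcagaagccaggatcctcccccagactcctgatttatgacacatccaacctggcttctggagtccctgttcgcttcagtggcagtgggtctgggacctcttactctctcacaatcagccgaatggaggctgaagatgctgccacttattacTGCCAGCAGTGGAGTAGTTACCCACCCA
These sequences lie at chr12:115912344-115912643 (Ighv1-80), chr12:115507545-115507844 (Ighv1-64), chr12:113588267-113588566 (Ighv2-2) and chr12:115335082-115335381 (Ighv1-59), all on the minus strand of the heavy chain locus. The kappa sequences lie at chr6:70672078-70672377 on the plus strand (Igkv3-4) and at chr6:68631963-68632260 (Igkv10-96) and chr6:69607275-69607574 (Igkv4-55) on the minus strand. The 3 printed Ighv1 segments end in the same 9 bases from the cysteine codon on. Ighv1-64 and Ighv1-59 were 92.3% identical over 351 aligned transcript bases, Ighv1-80 was 84.9% identical to each of them, and Ighv2-2 was 59.5% to 61.6% identical to the Ighv1 segments. The 3 kappa leaders were 64.4% to 69.0% identical to each other.

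The libraries held 15466117 (WTKL 1), 22867836 (WTKL 2), 16453512 (LYZKL 1) and 18322164 (LYZKL 2) counted reads, as rebuilt from the steps in the low FPKM values. At the median segment length of 363 bases, 1 read was worth 0.178, 0.120, 0.167 and 0.150 FPKM in that order. A segment at 0 could therefore have stood at up to 0.534, 0.361, 0.502 and 0.451 FPKM (3 reads). Such limits and all read-based intervals cover counting error only. Tmem173, the targeted gene, stood at 15.4 and 15.2 FPKM in WTKL against 5.02 and 4.75 FPKM in LYZKL. Lyz2, the lysozyme M gene, stood at 9560 and 10232 FPKM in WTKL against 2614 and 3650 FPKM in LYZKL. The log2 difference of Lyz2 was -1.68 (limma adjusted p = 0.0641), and its part in the results below was not tested. The macrophage and gate markers were at 1 FPKM or more in every library for 11 of the 11 listed genes with a single row. One of them, Siglecf, the marker whose low level defined the gate, was higher in LYZKL, at 6.05 and 6.80 FPKM in WTKL against 15.6 and 15.6 FPKM in LYZKL (log2 difference 1.16, limma adjusted p = 0.0452), and its part in the results below was not tested. Itgam, which encodes CD11b, stood at 349.4 to 360.2 FPKM in the higher of its 2 rows.

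Heavy chain variable segments were present in all 4 libraries at summed levels that differed more within a group than between the groups. The 38 Ighv segments summed to 121.7 FPKM in WTKL replicate 1 and 424.9 FPKM in WTKL replicate 2, from 670 and 3640 reads. In the LYZKL libraries they summed to 129.2 FPKM (replicate 1, 755 reads) and 325.2 FPKM (replicate 2, 2202 reads). Each group thus had 1 library with a low and 1 with a high sum, and the groups overlapped. The WTKL mean was 273.3 ± 214.4 FPKM and the LYZKL mean was 227.2 ± 138.6 FPKM (SD, n = 2 each), a log2 ratio of -0.27 (exact permutation test, two-sided, p = 1.0, where 2 against 2 cannot go below 0.33).

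The kappa segments followed the same order of libraries. Summed over 39 Igkv segments, the level was 83.6 FPKM in WTKL replicate 1, 272.7 in WTKL replicate 2, 181.8 in LYZKL replicate 1 and 252.4 in LYZKL replicate 2. WTKL replicate 1 was the lowest and WTKL replicate 2 the highest, with both LYZKL libraries between them. The means were 178.2 ± 133.8 FPKM in WTKL and 217.1 ± 49.96 FPKM in LYZKL (SD, n = 2 each), a log2 ratio of 0.29 (exact permutation test, two-sided, p = 1.0). The 2 lambda segments summed to 3.85, 6.64, 3.30 and 5.47 FPKM in the same order, with a log2 ratio of -0.26 (exact permutation test, two-sided, p = 0.667). Lambda was the minor light chain here at the constant genes too, where Igkc, the kappa constant gene, made up 95.3% to 97.9% of the summed light chain constant FPKM.

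**Figure D1:**
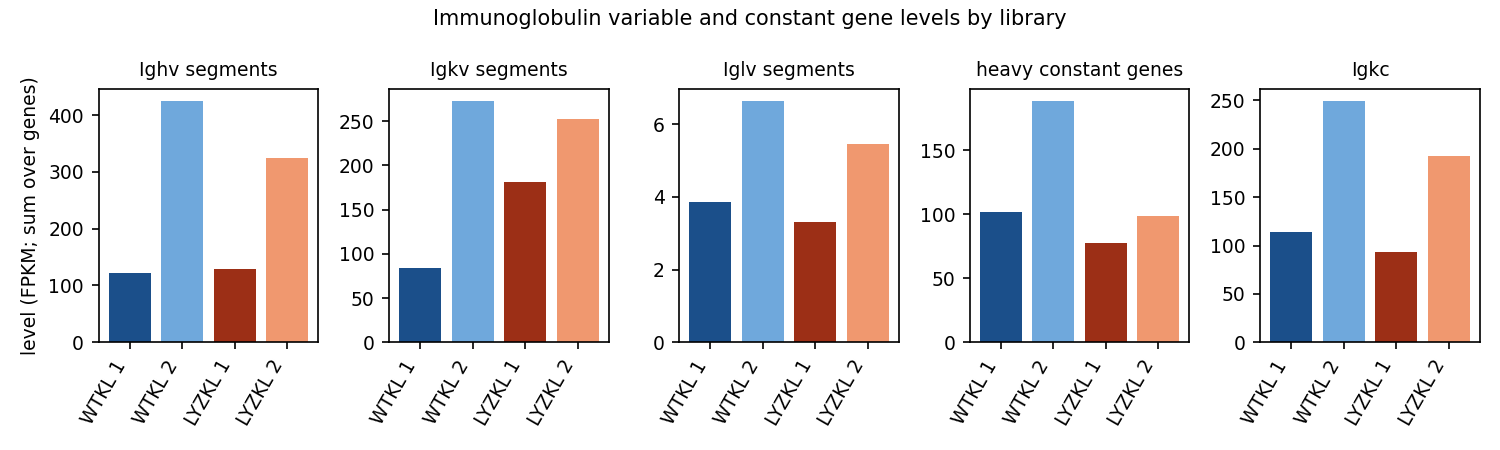
Summed FPKM (y axis, from 0, a scale for each panel) of the Ighv, Igkv and Iglv segments, of the heavy constant genes and of Igkc, with 1 bar per library. Each group holds 1 library with a low and 1 with a high Ighv sum (121.7 and 424.9 FPKM in WTKL, 129.2 and 325.2 FPKM in LYZKL), so the groups overlap.

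The sum of the listed B cell markers did not rank the libraries as the variable segments did. The 15 listed B cell genes summed to 35.9 and 36.9 FPKM in WTKL and to 26.0 and 30.3 FPKM in LYZKL. The groups thus did not overlap for this sum, where 52.2% of all tested rows did not overlap. Cd22 alone gave 14.0 and 15.1 FPKM of these sums in WTKL and 13.2 and 13.4 FPKM in LYZKL. None of the 15 was at 0 in any library. Cd79a, which encodes a signalling chain of the B cell receptor, stood at 3.91, 3.63, 2.63 and 3.30 FPKM in the order WTKL 1, WTKL 2, LYZKL 1, LYZKL 2. Ms4a1, which encodes the B cell surface protein CD20, stood at 1.22, 1.02, 0.580 and 0.759 FPKM. Of the 9 B cell genes tested, 0 passed limma's threshold and 4 had an unadjusted p under 0.05, as did 18.8% of all 12691 tested rows. Each tested B cell gene had a negative log2 difference, with a median of -0.32. The part of B cells in the segment levels was not tested.

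Of the 12 listed plasma cell genes, 11 had a row, and they summed to 109.6 and 144.6 FPKM in WTKL and to 133.8 and 121.0 FPKM in LYZKL. Much of that sum came from genes such as Xbp1 and Slamf7, which macrophages also express. Jchain, which links antibody monomers into IgM pentamers and IgA dimers, ranked the libraries as the Ighv sums did, at 2.93 and 10.1 FPKM in WTKL and 6.33 and 8.50 FPKM in LYZKL. None of the other listed plasma cell genes with a row ranked the libraries in that order. Mzb1, a chaperone cofactor of antibody folding, stood at 1.21, 1.16, 0.604 and 0.543 FPKM. Derl3, a component of endoplasmic reticulum quality control, was at 0 in LYZKL replicate 1 and highest, at 0.490 FPKM, in LYZKL replicate 2. Of the 8 plasma cell genes tested, 0 passed limma's threshold and 3 had an unadjusted p under 0.05 (18.8% of all tested rows), and the part of plasma cells in the segment levels was not tested.

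The number of segments in use split the libraries the same way as the heavy chain sums. At 1 FPKM or more there were 20 of the 79 segments in WTKL replicate 1, 60 in WTKL replicate 2, 19 in LYZKL replicate 1 and 52 in LYZKL replicate 2. Above 0 FPKM the numbers were 51, 75, 55 and 70. The number of immunoglobulin reads differed too, so the reads were thinned by calculation to the 1160 variable segment reads of WTKL replicate 1. At that equal number of reads, 51.0, 66.8, 47.6 and 62.1 segments were expected to have at least 1 read. Among these 79 segments, WTKL replicate 2 and LYZKL replicate 2 thus kept the longer lists at equal read numbers. These 2 libraries were the highest for 37 and 26 of the 79 segments, so the mean that chose the segments favors them. Their longer lists are partly set by that choice. The thinning used the chosen segments only and cannot remove it.

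Within the heavy chain, a few segments dominated WTKL replicate 1 and LYZKL replicate 1, while the other 2 libraries were spread over many. In WTKL replicate 1, Ighv1-80 held 45.3% of the summed Ighv FPKM, from 299 of 670 reads (44.6% of reads, Wilson 95% interval 40.9% to 48.4%). Ighv8-8 followed with 27.6% and Ighv6-3 with 8.51%, and these 3 segments made up 81.4%. In LYZKL replicate 1 a different set led: Ighv2-2 held 36.0% (269 of 755 reads), Ighv2-6 held 25.5% and Ighv3-6 held 16.1%, for 77.6% together. The 2 sets of leaders share no segment.

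The other 2 libraries had flat heavy chain distributions. WTKL replicate 2 was led by Ighv1-64 with 11.7% (460 of 3640 reads, 12.6% of reads, Wilson 95% interval 11.6% to 13.8%), then Ighv1-55 with 10.8% and Ighv1-80 with 10.7%. LYZKL replicate 2 was led by Ighv1-80 with 13.4% (280 of 2202 reads), then Ighv1-82 with 9.52% and Ighv9-3 with 9.18%. The effective number of Ighv segments, the inverse Simpson index that equals the number of equally used segments with the same concentration, was 3.38 and 15.6 in WTKL and 4.36 and 15.9 in LYZKL. To reach 90% of the summed FPKM of the 38 segments took 5, 19, 6 and 19 segments. All 90 Ighv rows together summed to 133.45 and 444.3 FPKM in WTKL and to 137.8 and 340.7 FPKM in LYZKL. Leaving out the rows below the threshold thus raised these shares, most of all in WTKL replicate 1. The share of the leading Ighv segment was 3.80 percentage points lower on average in LYZKL (exact permutation test, two-sided, p = 1.0, n = 2 each).

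**Figure D2:**
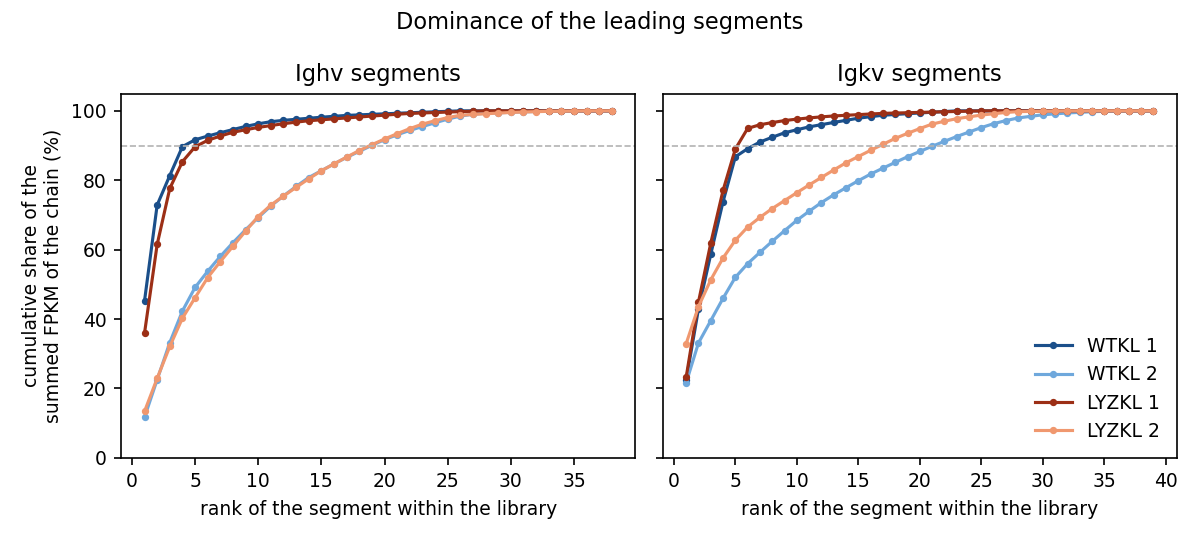
Cumulative share (y axis, percent) of the summed FPKM of the 38 Ighv or 39 Igkv segments. The x axis is the rank of the segment within each library, with 1 line per library. For Ighv, WTKL replicate 1 and LYZKL replicate 1 reach 90% with 5 and 6 segments, and the other 2 libraries with 19 each.

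In the 2 libraries with short lists, the leading kappa segment held a smaller share of its chain than the leading heavy chain segment. WTKL replicate 1 was led by Igkv3-4 with 22.3% of the Igkv sum (104 of 467 reads, 22.3% of reads, Wilson 95% interval 18.7% to 26.3%), followed by Igkv5-39 with 20.5% and Igkv9-120 with 15.8%. In LYZKL replicate 1, Igkv4-55 led with 23.2% (263 of 1109 reads), followed by Igkv6-23 with 21.7% and Igkv14-111 with 17.0%. The top 5 segments held 86.8% and 89.0% of the kappa sum in these 2 libraries. Most kappa RNA there thus came from a handful of segments of similar level. That sum covers the 39 segments, at 83.6 and 181.8 FPKM, against 95.3 and 185.6 FPKM over all 82 Igkv rows. Leaving out the rows below the threshold thus raised the kappa shares, more so in WTKL replicate 1.

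Igkv10-96 led the kappa chain of both remaining libraries. It held 21.6% in WTKL replicate 2 (484 of 2314 reads), ahead of Igkv1-110 with 11.5% and Igkv19-93 with 6.45%. In LYZKL replicate 2 it held 32.9% (546 of 1690 reads, 32.3% of reads, Wilson 95% interval 30.1% to 34.6%), ahead of Igkv6-23 with 10.7% and Igkv19-93 with 7.74%. The effective number of kappa segments was 6.32 and 12.1 in WTKL and 5.86 and 7.15 in LYZKL. The leading kappa segment's share was 6.06 percentage points higher in LYZKL on average, and higher in both LYZKL libraries than in both WTKL libraries (exact permutation test, two-sided, p = 0.33, the smallest that 2 against 2 allows). With segments of at least 5 FPKM the difference reversed to -10.2 points, and without LYZKL replicate 2 it was 1.22 points.

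Among the heavy chain families, Ighv1 was the largest in number and led 3 of the 4 libraries. It gave 24 of the 38 Ighv segments, out of 47 Ighv1 rows, and held 61.1% and 66.1% of the Ighv sum in WTKL and 65.3% in LYZKL replicate 2. In LYZKL replicate 1 it held 19.9%. There the Ighv2 family held 61.5%, against 1.06%, 4.45% and 8.25% in WTKL 1, WTKL 2 and LYZKL 2, although only 2 of its 7 rows reached 1 FPKM. The Ighv3 family, with Ighv3-6 as its single segment, held 16.1% in LYZKL replicate 1 and 1.74% or less elsewhere.

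Other heavy chain families were prominent in 1 or 2 libraries each. Ighv8, represented by Ighv8-8, held 27.6% in WTKL replicate 1, 6.79% in WTKL replicate 2, 0.263% in LYZKL replicate 1 and 0.985% in LYZKL replicate 2. Ighv6 held 8.80% and 9.23% in WTKL and 0.264% and 4.95% in LYZKL. Of its 2 segments, Ighv6-6 stood at 38.6 FPKM in WTKL replicate 2 and 5.35 FPKM in LYZKL replicate 2, and Ighv6-3 at 10.4 FPKM in WTKL replicate 1 and 10.7 FPKM in LYZKL replicate 2. Ighv9 and Ighv14 reached 9.18% and 8.39% in LYZKL replicate 2 and stayed at 1.96% or less in the others. In all, 9 of the 14 Ighv families with a row had a segment at the threshold.

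The kappa segments came from 14 of the 17 Igkv families with a row. Igkv10, in practice Igkv10-96, was the 1 family above 10% in every library, at 13.2% and 24.7% in WTKL and 11.9% and 33.3% in LYZKL. Igkv6 gave the most segments, 7 of 9 rows, and held 20.3% to 23.9% in 3 libraries but 1.26% in WTKL replicate 1. Igkv4 gave 6 of 20 rows and held 15.8%, 10.4%, 23.3% and 4.67%. WTKL replicate 1 stood apart by Igkv3 (24.9%), Igkv5 (20.5%) and Igkv9 (15.8%), each at 8.75% or less in the other libraries. LYZKL replicate 1 stood apart by Igkv14 (17.0%) and Igkv16 (15.2%), each at 5.09% or less elsewhere. Igkv1 was highest in WTKL replicate 2, at 19.2%.

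**Figure D3:**
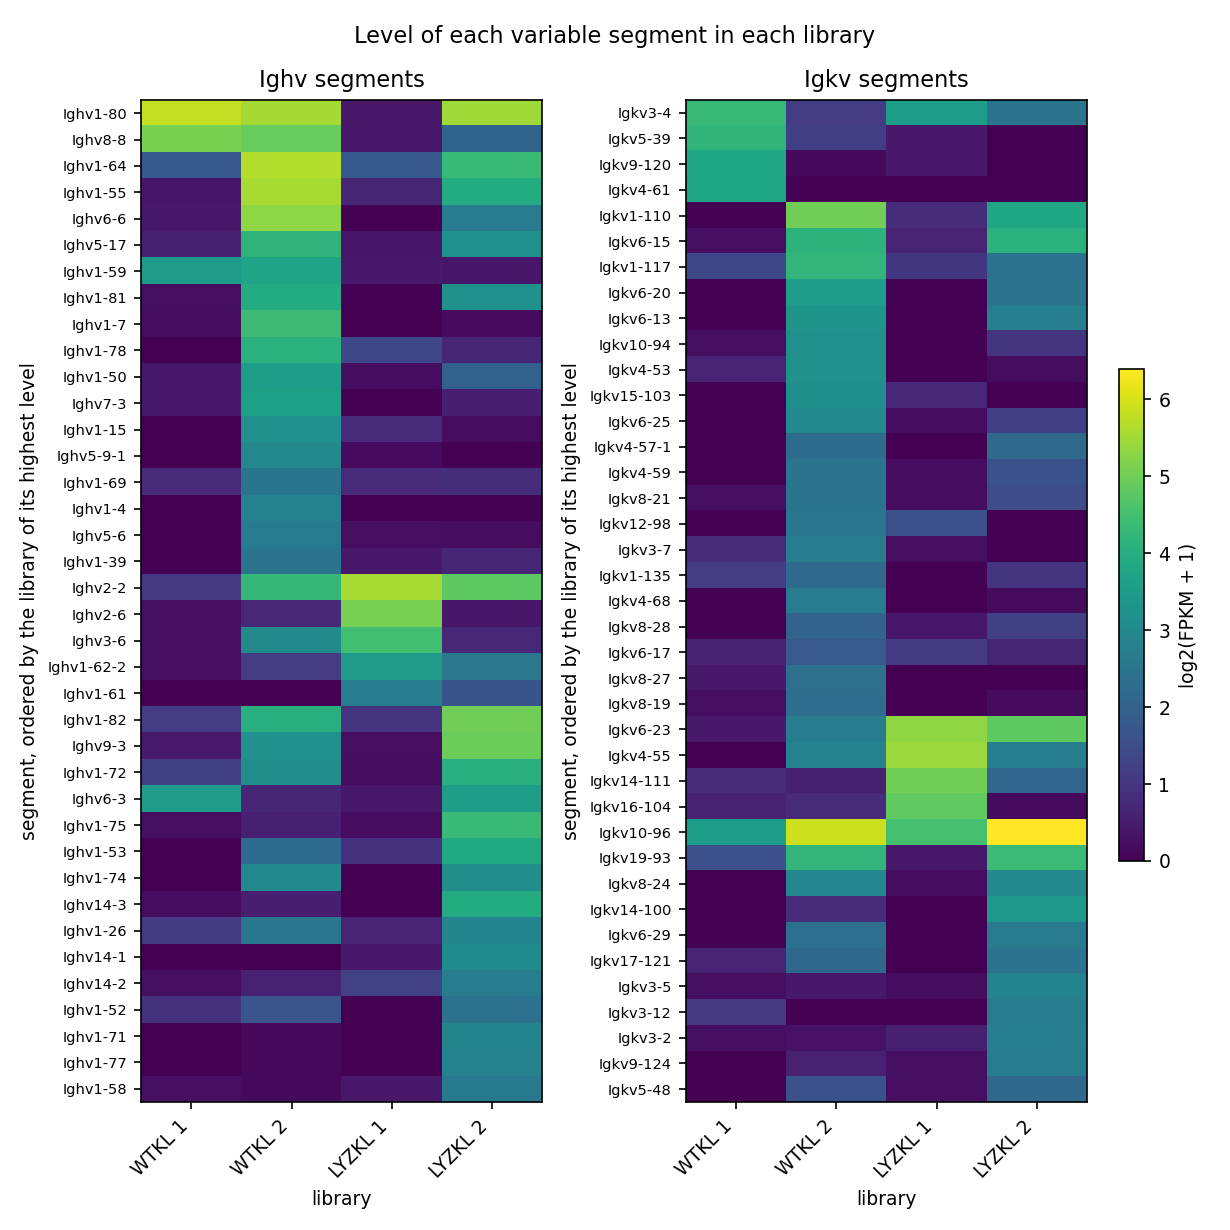
Level of each of the 38 Ighv and 39 Igkv segments (rows) in each library (columns), as log2(FPKM + 1) in color, ordered by the library of the segment's highest level. Each block of rows is bright in its own library, with WTKL replicate 2 and LYZKL replicate 2 leading 37 and 26 of all 79 segments.

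By mean level, Ighv1-80 was the most abundant heavy chain segment, and its pattern was 3 libraries against 1. It stood at 55.1 and 45.5 FPKM in WTKL, at 43.5 FPKM in LYZKL replicate 2 and at 0.346 FPKM (2 reads) in LYZKL replicate 1. Ighv2-2 stood at 1.10 and 18.3 FPKM in WTKL against 46.4 and 26.5 FPKM in LYZKL. Ighv1-64 stood at 2.39 and 49.7 FPKM in WTKL against 2.40 and 19.1 FPKM in LYZKL. Ighv1-80 was near its floor in the library that Ighv2-2 led, and Ighv1-64 was high only in the 2 libraries with flat distributions.

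Several abundant heavy chain segments had 1 library far above the others. Ighv1-55 stood at 0.312, 46.0, 0.586 and 14.3 FPKM, in the order WTKL 1, WTKL 2, LYZKL 1, LYZKL 2. Ighv6-6 stood at 0.362, 38.6, 0 and 5.35 FPKM in that order. Ighv2-6 stood at 0.185, 0.625, 33.0 and 0.312 FPKM. The last of these was nearly absent outside LYZKL replicate 1, while the first pair had their second highest value in LYZKL replicate 2. Ighv3-6 resembled it in part, at 20.8 FPKM in LYZKL replicate 1, but had 7.37 FPKM in WTKL replicate 2. Ighv9-3 was highest in LYZKL replicate 2, at 29.9 FPKM, with 8.35 FPKM in WTKL replicate 2 and 0.368 and 0.173 FPKM in WTKL replicate 1 and LYZKL replicate 1. Ighv1-82 was likewise highest in LYZKL replicate 2, at 31.0 FPKM, with 15.0 FPKM in WTKL replicate 2. Ighv5-17 (16.7 and 8.22 FPKM) and Ighv1-72 (7.95 and 15.0 FPKM) shared those 2 libraries too.

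Igkv10-96 had the highest mean of all 79 segments. It stood at 10.8 and 59.0 FPKM in WTKL against 21.7 and 83.0 FPKM in LYZKL, so it was above 10 FPKM in every library. Igkv6-23 stood at 0.350 and 5.57 FPKM in WTKL against 39.4 and 26.9 FPKM in LYZKL. Igkv4-55 stood at 0 and 6.12 FPKM in WTKL against 42.2 and 5.76 FPKM in LYZKL. Igkv6-23 separated the groups, and Igkv4-55 did not, because LYZKL replicate 2 lay below WTKL replicate 2.

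Several other kappa segments were high in the pair of libraries with flat heavy chain distributions or in a single library. Igkv1-110 stood at 31.3 FPKM in WTKL replicate 2 and 12.9 FPKM in LYZKL replicate 2, against 0 and 0.758 FPKM in WTKL 1 and LYZKL 1. Igkv19-93 stood at 17.6 and 19.5 FPKM in that same pair and at 1.96 and 0.335 FPKM in the others. Igkv6-15 stood at 16.5 and 15.9 FPKM there, against 0.186 and 0.525 FPKM. These 3 segments were high in WTKL replicate 2 and LYZKL replicate 2 and low in WTKL replicate 1 and LYZKL replicate 1. Igkv1-117 stood at 1.60, 17.5, 1.05 and 4.32 FPKM, with its highest value in WTKL replicate 2. Igkv3-4 stood at 18.7, 1.21, 10.8 and 4.55 FPKM in the same order, high in the 2 libraries with short lists. Igkv5-39 stood at 17.1 and 1.26 FPKM in WTKL against 0.350 and 0 FPKM in LYZKL. Igkv4-61 had 12.7 FPKM in WTKL replicate 1 and 0 in the other 3 libraries, which leaves room for at most 3 reads in each. Igkv9-120 stood at 13.2 FPKM in WTKL replicate 1 and at 0.344 FPKM or less elsewhere. Igkv16-104 stood at 27.7 FPKM in LYZKL replicate 1 and at 0.694 FPKM or less elsewhere.

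The lambda locus has few variable segments in mice, and both that reached the threshold were at low level. Iglv1 stood at 1.98, 5.03, 2.02 and 4.61 FPKM (WTKL 1, WTKL 2, LYZKL 1, LYZKL 2), a pattern in which both replicate 2 libraries were higher. Iglv3 stood at 1.87 and 1.61 FPKM in WTKL against 1.28 and 0.860 FPKM in LYZKL. Iglv1 made up 51.5%, 75.8%, 61.3% and 84.3% of the lambda sum. Iglv2 had a mean of 0.316 FPKM and was the 1 lambda row below the threshold.

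Near the threshold of 1 FPKM, the lowest heavy chain segments kept were Ighv1-39 (mean 1.36 FPKM) and Ighv1-58 (1.41 FPKM), and the highest left out were Ighv1-63 (0.972 FPKM) and Ighv1-5 (0.948 FPKM). For kappa, Igkv8-19 (1.06 FPKM) and Igkv8-27 (1.12 FPKM) were kept, and Igkv12-41 (0.950 FPKM) and Igkv12-44 (0.948 FPKM) were left out. Ighv1-63 reached 3.89 FPKM in LYZKL replicate 2 and was at 0 in the other 3 libraries. A mean over 4 libraries can thus leave out a segment that is well above 1 FPKM in 1 of them.

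Few segments were shared by all libraries. Of the 79, 29 reached 1 FPKM in exactly 1 library, 34 in 2, 10 in 3 and 6 in all 4. The 6 were Ighv2-2, Ighv1-64, Igkv10-96, Igkv3-4, Igkv1-117 and Iglv1. WTKL replicate 2 and LYZKL replicate 2, which belong to different groups, shared 17 Ighv segments at 1 FPKM or more, 60.7% of the 28 in the first and 65.4% of the 26 in the second. For Igkv they shared 19, which is 63.3% of 30 and 76.0% of 25. The short lists of the other 2 libraries shared 2 Ighv segments (22.2% of 9 and 25.0% of 8) and 3 Igkv segments (33.3% of 9 in each).

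Weighted by abundance, sharing was also highest between these libraries of different groups. The overlap of 2 libraries is the sum over segments of the smaller of the 2 shares, so that 100% means the same mix. For Ighv it was 47.6% between WTKL replicate 2 and LYZKL replicate 2, 30.4% between the 2 WTKL libraries, 18.6% between the 2 LYZKL libraries, and 7.23% between WTKL replicate 1 and LYZKL replicate 1. For Igkv it was 61.8% between WTKL replicate 2 and LYZKL replicate 2, and 21.8% to 30.8% for the other 5 pairs. Over all 12691 tested rows the same measure was 89.8% to 95.9%. The group labels did not order the pairs. The mean within-group overlap minus the mean between-group overlap was 0.13 percentage points for Ighv and -4.75 for Igkv (exact permutation over the 3 ways to pair the libraries, p = 1.0 for each chain).

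**Figure D4:**
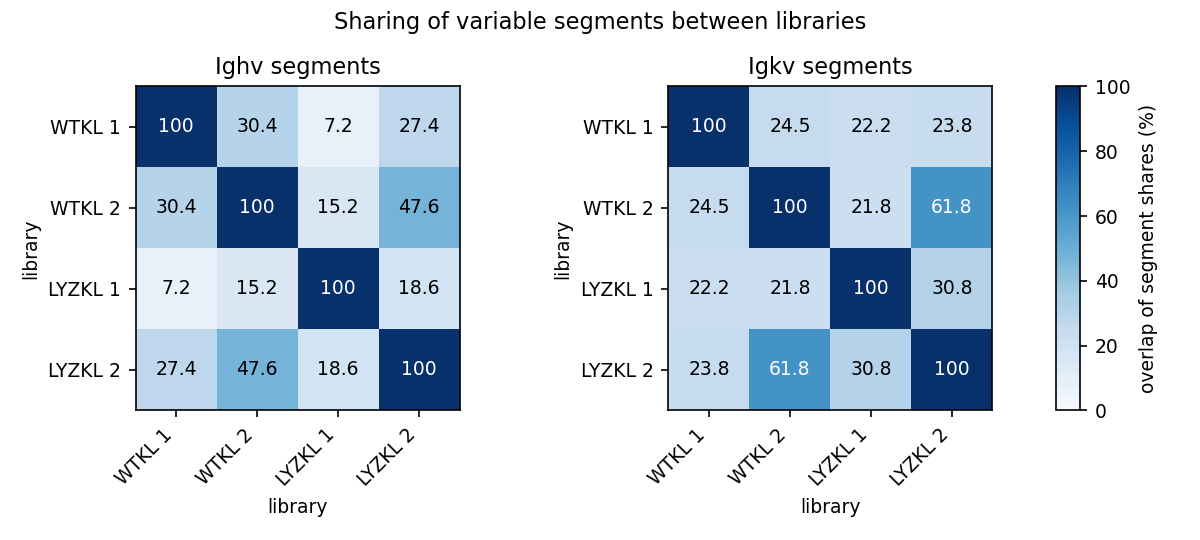
Overlap of segment shares (percent, color and printed value) for every pair of libraries, for Ighv on the left and Igkv on the right. WTKL replicate 2 and LYZKL replicate 2 overlap most, at 47.6% for Ighv and 61.8% for Igkv.

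Most segments drew most of their signal from 1 library. In 72 of 79 segments (91.1%), a single library held more than 50% of the 4-library sum, against 249 of all 12691 tested rows (1.96%). For more than 90% the numbers were 23 of 79 (29.1%) and 27 of 12691 (0.213%). The median share in the top library was 72.5% for the segments and 27.6% for all tested rows, where equal levels in 4 libraries would give 25%. The segments were chosen by a mean that a single library can carry, and no test is given. With each chain of each library scaled to the same sum, 69 of the 77 Ighv and Igkv segments still had more than 50% in 1 library, with a median of 72.9%. The top library was WTKL replicate 2 for 37 segments, LYZKL replicate 2 for 26, LYZKL replicate 1 for 9 and WTKL replicate 1 for 7.

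Variable segments of the T cell receptor, which are joined by the same recombination machinery, were also read in these libraries. Of these, 9 of 110 rows had a mean of at least 1 FPKM, and their median share in the top library was 38.2%. None of these 9 rows had more than 75% of its sum in 1 library, against 38 of the 79 immunoglobulin segments, and the difference was not tested.

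Between the groups, 1 of the 79 segments passed the test across all genes. Over the 12691 rows with a mean of at least 1 FPKM, limma on log2(FPKM + 1) called 37 rows at an adjusted p under 0.05, which is 0.292% of rows (0.134% lower and 0.158% higher in LYZKL). The called segment was Ighv1-59, on the minus strand at chr12:115335082-115335514 on GRCm38, whose germline sequence is printed above. It stood at 10.1 and 12.3 FPKM in WTKL, from 55 and 99 reads, and at 0.346 and 0.311 FPKM in LYZKL, from 2 reads in each library. Both LYZKL libraries were thus below the 3-read floor and far below both WTKL libraries. The log2 difference was -3.20 with a standard error of 0.12 (limma, Benjamini-Hochberg adjusted p = 0.0452). Both LYZKL values lie below the added 1 FPKM, which narrows their spread on this scale. Limma-voom on reads rebuilt from the table gave -4.81 with a standard error of 0.68.

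The call on Ighv1-59 was marginal. Leaving out each library in turn gave adjusted p-values of 0.239 and 0.219 (without WTKL replicate 1 or 2) and 0.197 and 0.0999 (without LYZKL replicate 1 or 2) in limma, with the log2 difference between -3.33 and -3.07. It also missed the threshold with no filter on low values (limma adjusted p = 0.148) and without the mean-variance trend (0.0578). Its closest copy, Ighv1-69, is 96.9% identical, so reads could be divided between the 2 genes in the authors' counting. Ighv1-69 stood at 0.737 and 4.61 FPKM in WTKL against 0.693 and 0.777 FPKM in LYZKL, and such a division was not tested.

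Of the remaining segments, Ighv8-8 came closest. It stood at 33.6 and 28.8 FPKM in WTKL against 0.340 and 3.20 FPKM in LYZKL, with a log2 difference of -3.76 (SE 0.57, limma adjusted p = 0.0816). A total of 8 of the 79 segments had an unadjusted p under 0.05, against 18.8% of all tested rows. The median log2 difference of the segments was -0.20, against 0.01 over all tested rows. Limma-voom on reads rebuilt from the table, run as an alternative, called 5 segments, where 9.25% of 10001 rows were called: Ighv1-59, Ighv8-8, Ighv1-61, Ighv1-62-2 and Igkv6-23. The first pair were lower in LYZKL and the remaining 3 higher.

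The groups did not overlap for 20 of 79 segments (25.3%), against 52.2% of all tested rows. In 11 of them both WTKL libraries were higher, against 24.4% of all rows, and in 9 both LYZKL libraries were higher, against 27.8% of all rows. Among those higher in LYZKL, Igkv6-23 had a log2 difference of 3.49 (limma adjusted p = 0.138), Igkv14-111 of 2.88 (adjusted p = 0.244) and Ighv2-2 of 2.51 (adjusted p = 0.327). Igkv14-111 stood at 0.703 and 0.475 FPKM in WTKL against 30.9 and 3.26 FPKM in LYZKL. Ighv1-62-2 stood at 0.171 and 1.16 FPKM in WTKL against 9.97 and 4.76 FPKM in LYZKL, and Ighv1-61 at 0 in both WTKL libraries and at 5.54 and 2.18 FPKM in LYZKL. Among those higher in WTKL, Ighv1-80 had a log2 difference of -2.72 (limma adjusted p = 0.470) and Igkv5-39 of -2.46 (adjusted p = 0.309). Without LYZKL replicate 1 the difference of Ighv1-80 was -0.20 and that of Igkv14-111 was 1.43. Without WTKL replicate 1 the difference of Ighv2-2 was 0.91, and that of Igkv5-39 was -0.96. Leaving out WTKL replicate 2 gave 4.10 for Ighv2-2 and -3.96 for Igkv5-39. Leaving out LYZKL replicate 2 gave -5.24 for Ighv1-80 and 4.33 for Igkv14-111. The lowest value for Igkv6-23 was 2.35, without WTKL replicate 1. Iglv3 had a log2 difference of -0.41 (limma adjusted p = 0.266).

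Summed markers of neutrophils and of T and NK cells, like those of B cells, did not overlap between the same groups. Of all tested rows, 52.2% did not overlap. The 8 neutrophil genes, none at 0, summed to 2373 and 1833 FPKM in WTKL and to 5549 and 3611 FPKM in LYZKL. Most of that sum was S100a9, at 2061 and 1562 FPKM in WTKL and 4860 and 3079 FPKM in LYZKL. Ly6g, the marker that the sort excluded, stood at 0.961 and 0.418 FPKM in WTKL and 0.968 and 0.985 FPKM in LYZKL. The 13 T and NK cell genes summed to 67.2 and 64.1 FPKM in WTKL and to 35.9 and 43.4 FPKM in LYZKL, with Ncr1 at 0 in some library. In limma, 0 of 7 tested neutrophil genes and 0 of 10 tested T and NK cell genes passed the threshold, and 7 and 8 had an unadjusted p under 0.05 (18.8% of all tested rows). Their part in the segment differences was not tested.

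Constant genes give the antibody classes in the same libraries, with no link from a constant gene to any single variable segment. In the same order of libraries, the 8 heavy chain constant genes summed to 102.0, 188.6, 77.6 and 98.9 FPKM. Ighg2c, the constant gene of IgG2c, stood at 73.6 and 110.8 FPKM in WTKL against 48.5 and 30.1 FPKM in LYZKL. Its share of the heavy constant sum was 72.2% and 58.8% in WTKL and 62.5% and 30.5% in LYZKL. The groups did not overlap in level (log2 difference -1.22, limma adjusted p = 0.16), as for 52.2% of all tested rows. The difference did not pass the threshold.

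Other classes separated the libraries by the breadth of their segments rather than by group. Ighg1, the constant gene of IgG1, stood at 0.399 and 1.13 FPKM in WTKL replicate 1 and LYZKL replicate 1, and at 22.7 and 30.3 FPKM in WTKL replicate 2 and LYZKL replicate 2. Its share of the heavy constant sum was 0.391% and 1.45% in the first pair and 12.0% and 30.6% in the second. Igha, the constant gene of the mucosal class IgA, stood at 4.02 and 4.85 FPKM in the first pair and 12.8 and 11.8 FPKM in the second. By share of the heavy constant sum Igha split them less clearly, at 3.94% and 6.25% in the first pair and 6.76% and 11.9% in the second. Ighm, the constant gene of IgM, the class of naive B cells, stood at 17.0, 29.2, 21.04 and 13.3 FPKM and did not follow that split. Of the 9 constant genes tested, 0 passed limma's threshold and 2 had an unadjusted p under 0.05 (18.8% of all tested rows).

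Igkc stood at 113.6 and 249.3 FPKM in WTKL against 93.5 and 192.7 FPKM in LYZKL. The summed Igkv level was 0.735, 1.09, 1.94 and 1.31 times the Igkc level in the 4 libraries. The summed Ighv level was 1.19, 2.25, 1.66 and 3.29 times the heavy constant sum. These ratios compare levels per length of transcript. The heavy chain ratios of the groups overlapped, while the kappa ratios were higher in both LYZKL libraries, a pattern that 2 against 2 cannot carry past the threshold.

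**Figure D5:**
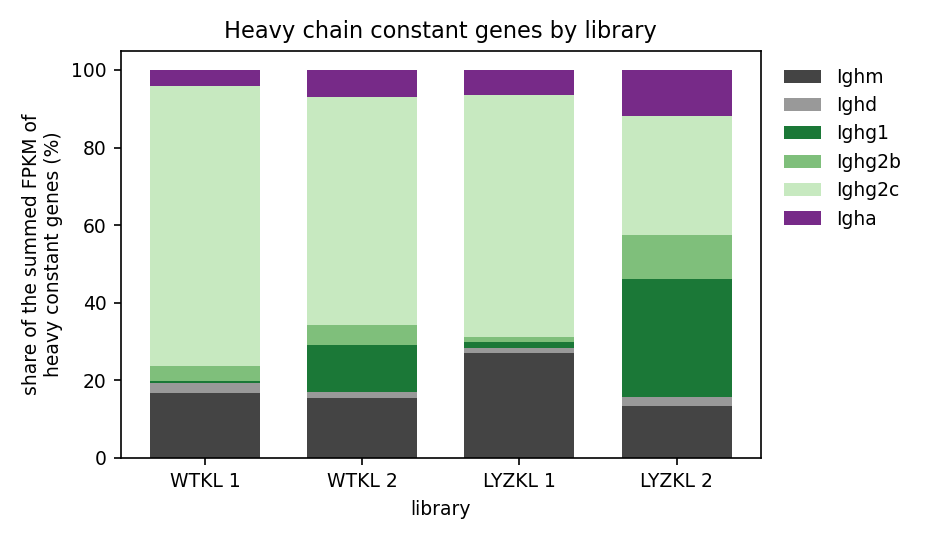
Share of each heavy chain constant gene (percent of their summed FPKM, stacked bars) in each library, without Ighg3 and Ighe, which were near 0. Ighg1 takes 12.0% and 30.6% in WTKL replicate 2 and LYZKL replicate 2, against 0.391% and 1.45% in the other 2 libraries, and Ighg2c takes 30.5% to 72.2%.

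Position along the loci was described as distance from the joining segments. All 38 Ighv segments lie on the minus strand of chromosome 12, as do all 113 annotated Ighv genes. The 39 Igkv segments lie on chromosome 6 in both orientations, 17 on the plus and 22 on the minus strand, against 38 and 62 of the annotated genes. Of the 38 Ighv segments, 23 (60.5%) lay farther from the joining segments than the median annotated Ighv gene, at 1182 kb. These far segments held 88.6% and 66.8% of the Ighv sum in WTKL and 20.1% and 66.3% in LYZKL. LYZKL replicate 1 was the 1 library in which near segments, such as Ighv2-2, held most of the heavy chain RNA. For kappa, 15 of 39 segments (38.5%) lay beyond the median of 1314 kb, with 36.7% and 59.1% of the sum in WTKL and 47.0% and 57.3% in LYZKL.

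Many variable segments have near-identical copies, which limits what can be said of any single one. The closest copy among the annotated variable genes was at least 95% identical for 46 of the 79 segments and at least 90% identical for 69, with a median of 95.4%. Ighv1-62-2 and Ighv1-71 are 99.7% identical and share a run of 351 identical bases. Igkv6-20 and Igkv6-29 are 98.7% identical, and Igkv1-110 and Igkv1-117 are 97.5% identical. Ighv1-80 and Ighv1-82 are 95.4% identical. How the authors' counting treated reads that match several genes is not given in the sources used here, and hypermutation in B cells further changes these sequences, so levels of single segments are uncertain.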

How the data were processed

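The authors deposited 1 table of FPKM values with 1 column per library. Per the labels' protocols, poly(A) RNA was made into libraries that do not mark strand and sequenced as 150-base paired reads. Per the submitters' processing notes, the tools were featureCounts 2.0.0, HISAT2 2.0.5 and Cell Ranger 6.1.2 and the build was mm10, without roles. The annotation and the handling of reads matching several genes were not stated in any source used here. Because strand is not marked, overlapping genes cannot be told apart. FPKM divides by length and library total, so a few abundant genes shift all others.

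Reads were rebuilt from FPKM, GENCODE M21 exon lengths and the library totals that the low values give. All 79 segments came out as whole reads in every library (tolerance 0.05 read), as did 10001 of the 12691 rows tested. Shares, sums and overlaps use FPKM. Groups were compared on log2(FPKM + 1), computed here from the deposited FPKM, by limma 3.58.1 (R 4.3.3) with a mean-variance trend, two-sided, adjusted by Benjamini-Hochberg at 0.05, for rows with a mean of at least 1 FPKM, and with exact permutation tests for single values. The limma fit was tested on simulated data. Sequence identity is from local alignment of GENCODE M21 transcripts with Biopython 1.88. Gene names are in mouse style, while the table has them in upper case.

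Named were the 12 Ighv and 12 Igkv segments with the highest means, the Iglv segments, the 3 leading segments per chain and library, segments past the threshold, the 2 rows on each side of 1 FPKM, and listed genes. Ighv1-61, Ighv1-62-2, Igkv4-61 and the near copies were named after their values were seen. The segments and gene lists were chosen with earlier results of these data known. Replicate numbers come from the titles and are not stated to pair libraries. All 4 libraries carry 1 batch label, which leaves no batches to compare. Alternatives were other pseudocounts, filters, no trend, limma-voom on rebuilt reads, a replicate block, each library left out, and other ways to sum a chain. Thinning to equal reads and the concentration of chain shares were added after the data were seen. Some items of the labels and lists are not reported here.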

Additional observations from a re-analysis of the deposited data

How the results depend on the processing

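The number of variable segments and of all rows past limma's threshold depended on the settings. With no filter on low values limma called 0 segments and 0 rows (20 and 3136 at an unadjusted p under 0.05). Limma called with a mean of at least 5 FPKM 2 and 340 and without the trend 0 and 0 (8 and 2255 unadjusted). Limma-voom on rebuilt reads called 5 and 925. Leaving out 1 library called 0 segments and 0 rows in limma each time, with 10 to 28 segments and 1431 to 2280 rows at an unadjusted p under 0.05, and the lone library of its group is then assumed to vary like the others. Fitting the replicate number as a replicate block called 0 segments and 0 rows in limma (13 and 2399 unadjusted), with an adjusted p of 0.0701 for Ighv1-59. Same-numbered libraries deviated together with a correlation of 0.16 over all tested rows and 0.05 without the segments, over only 2 pairs. Ighv1-59 had adjusted p-values from 0.00159 to 0.239 over its alternatives and was past the threshold with pseudocounts of 0.1 and 5, a mean of at least 5 FPKM and voom. Leaving out 1 library moved the log2 ratio of the sums from -1.08 to 0.90 for Ighv, from -0.33 to 1.38 for Igkv and from -0.67 to 0.19 for Iglv. It moved the difference in the leading segment's share from -20.6 to 13.0 percentage points for Ighv and from 1.22 to 10.9 for Igkv. With segments of at least 5 FPKM those differences were 0.921 and -10.2, and no Iglv segment was left. The Ighv overlap difference was -0.249 with rebuilt reads and -1.74 with segments of at least 5 FPKM. For these changes the cause was not tested. Depth limits the segments at 0 to 3 reads or fewer, and the 2 libraries with the fewest immunoglobulin reads set the least certain shares.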

Other observations

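Joining segments, the short pieces to which variable segments are joined, were read at low numbers. Igkj1 had 14 and 62 reads in WTKL and 21 and 40 reads in LYZKL, which is the order of the Ighv and Igkv sums. Ighj2 had 22 and 65 reads in WTKL and 1 and 17 reads in LYZKL, so it was nearly absent from LYZKL replicate 1, where Ighj1 had 28 of the heavy chain joining reads. Igkj3 had 0, 12, 8 and 2 reads and was the kappa joining segment with the fewest reads summed over the libraries. Igkj5 had 40, 99, 23 and 40 reads and had the most. Joined RNA is spliced from the joining segment to the constant gene, and how the authors' counting divided such reads is not given in the sources used here.

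The listed genes of early B cell development that had a row were below 1 FPKM in all libraries. Rag1 and Rag2, which encode the recombinase that joins variable segments in developing lymphocytes, had at most 0.02 FPKM each. Vpreb1, a surrogate light chain component of pre-B cells, stood at 0.581 and 0.786 FPKM in WTKL against 0.655 and 0.392 FPKM in LYZKL.

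Several of the listed antibody receptors were abundant, while Fcmr stood at 1.54 to 2.29 FPKM and Pigr at 0.241 to 0.420 FPKM. Of the 7 tested, 0 passed limma's threshold (3 at an unadjusted p under 0.05, Fcmr among them, as 18.8% of all rows were). Fcgr4, an activating receptor for IgG2 classes, stood at 59.9 and 66.2 FPKM in WTKL against 44.2 and 46.1 FPKM in LYZKL. Fcgr1, which encodes CD64, a gate marker of the sort, stood at 25.5 and 24.7 FPKM in WTKL against 19.5 and 20.8 FPKM in LYZKL. The groups did not overlap for Fcgr4 and Fcgr1, nor for Fcgr2b and Fcmr, and did not for 52.2% of all tested rows. They overlapped for the tested receptors Fcgr3, Fcer1g and Fcgrt. Fcgr3, another activating receptor, stood at 204.5 and 203.4 FPKM in WTKL against 215.8 and 203.5 FPKM in LYZKL. Of the 9 listed receptors, Fcamr was at 0 in both LYZKL libraries.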
